A study of Danio rerio with 4 samples.

Results

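The transcripts described here are 7 genes of autophagy, GABARAPL1, calcoco1a, sqstm1, map1lc3b, becn1, atg5 and ATG7, out of 31388 genes in the deposited tables. They were chosen by name, and GABARAPL1 and calcoco1a were put on the list because they had been seen to be lower after ventricular resection in both genotypes. The tables list 6 of the 7 under the chosen spelling and atg7 only as ATG7 in capitals. All 7 had at least 50 counts in at least 1 library, as did 15621 genes in all.

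RNA of heart ventricles from adult zebrafish aged 6 months to 1 year was sequenced in 4 libraries. The groups were wild-type fish of genotype AB* and mutants of genotype dusp6 pt30a/pt30a, each either uninjured or 20 days post amputation (dpa) of part of the ventricle. Dusp6 is a phosphatase that acts on the kinase ERK. Each group had 1 library, so differences between groups could not be checked against replicates, and the labels do not say how many ventricles went into a library.

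Total counts per library lay between 55197408 and 63222206. The dusp6 transcript itself was at 85.0 (WT) and 183 (dusp6) CPM without injury and 105 (WT) and 121 (dusp6) CPM at 20 dpa, so it was not lower in the mutant and its level does not check the genotype labels. CPM is the count scaled to a common library size, here after TMM, a normalization between libraries. Of 10 markers of ventricular and other cardiomyocytes 9 had a row and none was at 0, and their summed level was 42567 and 44459 CPM uninjured and 45729 and 49278 CPM at 20 dpa. The summed level was 266 and 336 CPM uninjured and 337 and 259 CPM at 20 dpa for 8 macrophage markers, and 65.3 and 65.8 against 194 and 164 CPM for 4 epicardial markers, each pair in the order WT and dusp6. Most of the macrophage sum came from the genes cd74a and lgmn. Of 8 fast skeletal muscle markers 7 were higher in both 20 dpa libraries than in both uninjured ones. Among them mylpfa was at 0.433 and 0.310 CPM uninjured and 17.7 and 5.55 at 20 dpa. The other marker, ckma, was lower in both 20 dpa libraries, at 4488 and 4559 CPM uninjured and 3800 and 4131 at 20 dpa. It made up most of the list's sum, 4490 and 4560 CPM uninjured and 3854 and 4150 at 20 dpa. The atrial gene myh6 was at 86.6 and 48.3 CPM uninjured and 145 and 250.03 at 20 dpa. The part of these markers in the results was not tested. Of 10 immediate early and chaperone genes kept as a check of RNA handling, 7 were higher in both 20 dpa libraries than in both uninjured ones. Of the 10, 1 was at 0 throughout, and the sums were 140 and 157 CPM uninjured and 412 and 377 CPM at 20 dpa. Most of this rise came from the chaperone genes hsp90aa1.1 (11.99 and 17.6, then 122 and 122 CPM) and hspa5 (62.6 and 53.4, then 192 and 140). Of the immediate early genes, fosab_1, fosb, junba and junbb were higher in both 20 dpa libraries. The levels of jun (50.2 and 57.9, then 56.3 and 73.9 CPM) and egr1 (3.39 and 10.8, then 16.5 and 10.6) overlapped between the states. The column headers named the uninjured and the 20 dpa libraries by different patterns and the labels gave no batch, so effects of resection and of how the libraries were made cannot be told apart.

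Autophagy encloses cytoplasm, organelles or protein aggregates in a double membrane and delivers them to the lysosome for breakdown. A kinase complex around ULK1 and a lipid kinase complex that contains Beclin 1 start the membrane, ATG9, ATG2 and WIPI proteins supply and mark its lipids, and enzymes such as ATG7 and ATG5 attach the small ATG8 proteins (the LC3 and GABARAP subfamilies) to it. Cargo receptors such as p62 bind both ATG8 proteins and the cargo. In heart muscle the process is known for the turnover of mitochondria and sarcomere proteins.

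The ATG8 genes and receptors among the chosen genes were the more abundant ones. By the authors' RPKM, which is corrected for gene length, GABARAPL1 (ENSDARG00000040971, named zgc:92606 in the gene name table) stood first with a mean of 46.5 over the 4 libraries. It was followed by map1lc3b (ENSDARG00000101127) with 32.4, sqstm1 (ENSDARG00000075014) with 29.2 and calcoco1a (ENSDARG00000036695) with 14.9. The conjugation and initiation genes were lower, with 7.10 for atg5 (ENSDARG00000023396), 4.10 for becn1 (ENSDARG00000079128) and 1.70 for ATG7 (ENSDARG00000102893). The order was the same in both uninjured libraries and in dusp6 20 dpa. In WT 20 dpa sqstm1 was first at 24.3 RPKM, before GABARAPL1 at 21.7 and map1lc3b at 19.9, and atg5 at 7.25 RPKM stood above calcoco1a at 5.81. Without replicates, neighbours in this order cannot be separated against a spread between libraries.

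**Figure D1:**
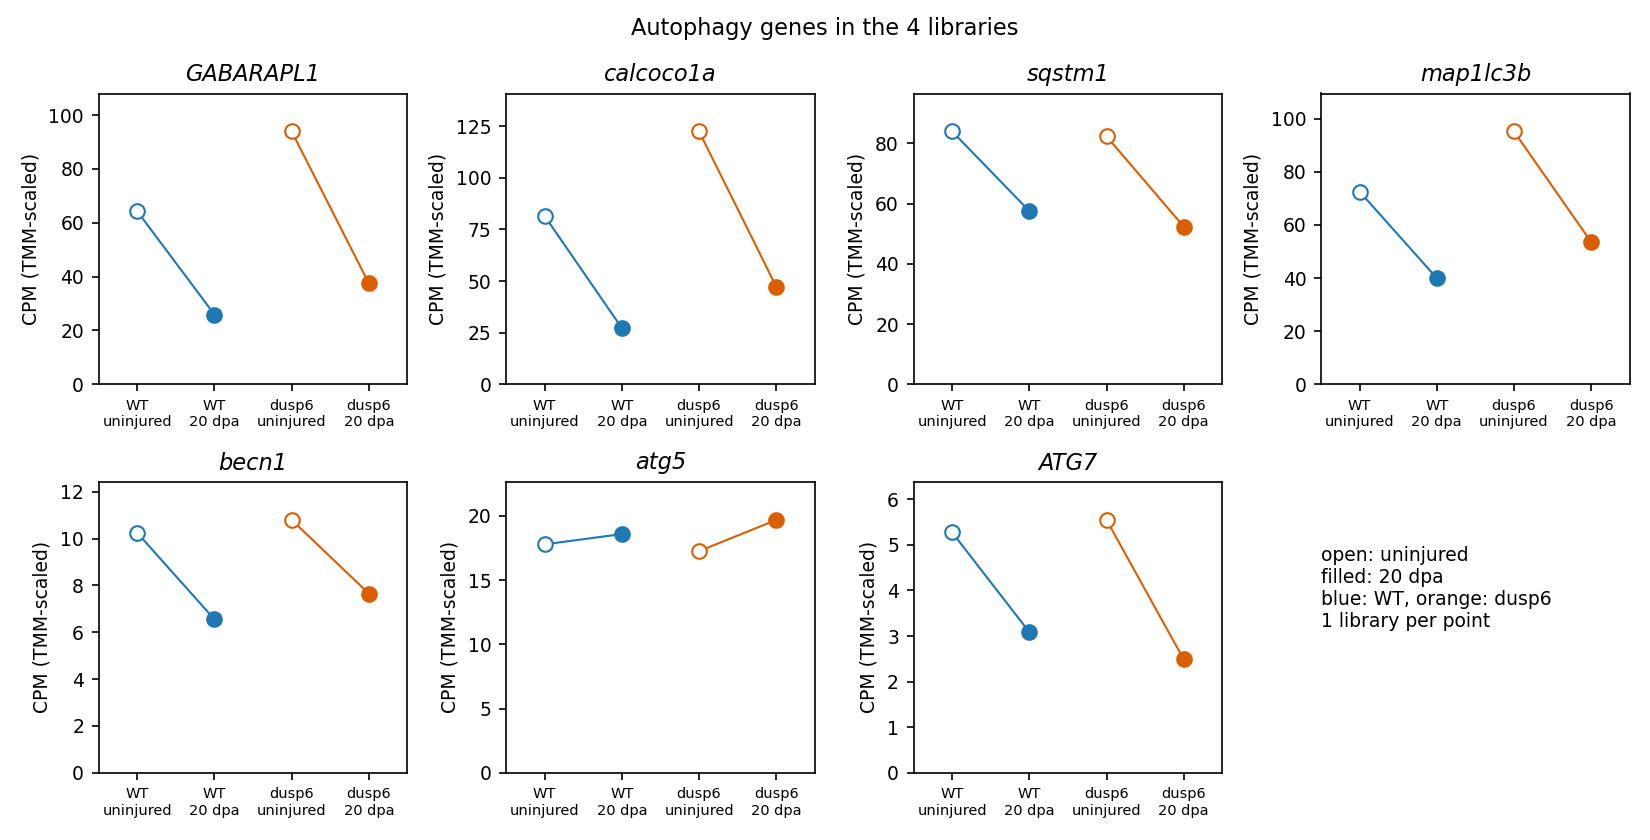
TMM-scaled CPM of each chosen gene (vertical axis from 0) in the 4 libraries (horizontal axis), 1 library per point, with lines joining the libraries of a genotype. Both 20 dpa points lie below both uninjured points for 6 genes, and atg5 is the exception, between 17.3 and 19.7 CPM throughout.

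GABARAPL1 encodes an ATG8 protein of the GABARAP subfamily, which is joined to the growing membrane and binds cargo receptors. It was measured at 64.3 CPM (WT) and 94.0 CPM (dusp6) without injury, against 25.9 CPM (WT) and 37.5 CPM (dusp6) at 20 dpa. Both 20 dpa libraries thus lay below both uninjured ones, and within each state dusp6 lay above WT. Against the uninjured library of its own genotype the transcript was lower by 2.48-fold in WT (95% counting interval 2.34 to 2.64) and by 2.50-fold in dusp6 (2.38 to 2.64). These intervals, here and for the other genes, cover counting error only, since each group had 1 library. Any PCR copies of a molecule counted as separate reads would make them too narrow even for that.

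map1lc3b encodes an ATG8 protein of the LC3 subfamily, the one most used as a marker of autophagosomes. Its levels were 72.6 CPM (WT) and 95.3 CPM (dusp6) without injury, against 40.0 CPM (WT) and 53.6 CPM (dusp6) at 20 dpa. The libraries stood in the same order as for GABARAPL1. The 20 dpa level was lower by 1.82-fold in WT (1.73 to 1.91) and by 1.78-fold in dusp6 (1.70 to 1.86).

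calcoco1a is a zebrafish gene for CALCOCO1, described in human cells as a receptor for autophagy of the endoplasmic reticulum. Its levels were 81.5 CPM (WT) and 122 CPM (dusp6) without injury, against 27.2 CPM (WT) and 47.3 CPM (dusp6) at 20 dpa. It had the largest difference of the 7 genes in both genotypes, lower by 2.99-fold in WT (2.83 to 3.17) and by 2.59-fold in dusp6 (2.48 to 2.71). In dusp6 this interval overlapped that of GABARAPL1 (2.38 to 2.64). calcoco1a was put on the list for being lower, so its rank follows in part from the choice. Its paralogue calcoco1b was measured on at most 72 counts in any library.

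sqstm1 encodes p62, a receptor for ubiquitin-tagged cargo that is itself degraded by autophagy. It was at 84.0 CPM (WT) and 82.3 CPM (dusp6) without injury, against 57.5 CPM (WT) and 52.4 CPM (dusp6) at 20 dpa. The uninjured levels lay close together, and both 20 dpa levels lay below them. The transcript was lower by 1.46-fold in WT (1.40 to 1.52) and by 1.57-fold in dusp6 (1.501 to 1.65).

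The genes of initiation and conjugation had the lowest levels and did not all differ alike. becn1, the Beclin 1 gene of the lipid kinase complex, was at 10.2 CPM (WT) and 10.8 CPM (dusp6) without injury, against 6.55 CPM (WT) and 7.65 CPM (dusp6) at 20 dpa, which is lower by 1.56-fold in WT (1.37 to 1.78) and by 1.41-fold in dusp6 (1.24 to 1.60). ATG7, the E1-like enzyme that activates ATG12 and the ATG8 proteins, was at 5.27 (WT) and 5.55 (dusp6) CPM without injury and 3.09 and 2.49 CPM at 20 dpa, lower by 1.71-fold in WT (1.42 to 2.06) and by 2.23-fold in dusp6 (1.82 to 2.75). Its 20 dpa levels rest on 170 and 130 counts, which makes its intervals the widest of the 7.

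atg5, whose protein joins ATG12 to form the E3-like part of the conjugation machinery, stood apart. It was at 17.8 CPM (WT) and 17.3 CPM (dusp6) without injury, against 18.6 CPM (WT) and 19.7 CPM (dusp6) at 20 dpa. The ratio of 20 dpa to uninjured was 1.04 in WT (0.960 to 1.14) and 1.14 in dusp6 (1.05 to 1.24). The log2 difference in WT turned from 0.06 to -0.02 when library totals replaced TMM.

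Counted together, 6 of the 7 genes were lower at 20 dpa in both genotypes, where 36.7% of the 15621 genes were. At least 2-fold differences on the log2 scale of CPM + 1 were found for GABARAPL1 and calcoco1a in both genotypes, where 2.14% of genes in WT and 4.14% in dusp6 were 2-fold lower, and 0.979% in both. The choice of genes used this contrast, so nothing is read from these counts. GABARAPL1 and calcoco1a had been noted for being lower in both genotypes, so no injury test of the chosen genes is given. An additive edgeR quasi-likelihood fit of genotype and injury called 0.819% of all genes for injury in either direction, at an adjusted p of 0.05. The authors' deposited table, which sets each 20 dpa library against both uninjured libraries together, gives GABARAPL1 a signed fold of -3.08 (WT) and -2.08 (dusp6). The authors' deposited table gives calcoco1a -3.77 and -2.13. In bulk tissue, fewer cells of a type and less RNA per cell cannot be told apart. Of 9 cardiomyocyte markers, 4 lay above both uninjured libraries in both 20 dpa libraries and none lay below both, but single markers were lower than in their own control. In dusp6, vmhc was at 722 CPM uninjured and 248 at 20 dpa and tnnc1a at 3485 and 2700, and in WT ttnb was at 723 and 572. Their part in the result was not tested.

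The own-control comparisons of the genotypes share no library, so the size of the difference is given side by side. GABARAPL1 and calcoco1a were chosen for being lower in both genotypes, so a ratio near 1 was favoured by the choice. The ratio of the dusp6 to the WT injury ratio was 0.992 for GABARAPL1 (counting interval 0.916 to 1.07) and 1.02 for map1lc3b (0.955 to 1.09). For calcoco1a it was 1.16 (1.07 to 1.24), since the dusp6 level was less reduced, and for sqstm1 0.928 (0.871 to 0.989). becn1 had 1.11 (0.928 to 1.32), atg5 1.09 (0.969 to 1.23) and ATG7 0.766 (0.583 to 1.006). With 1 library per group these differences have no test beyond counting error.

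**Figure D2:**
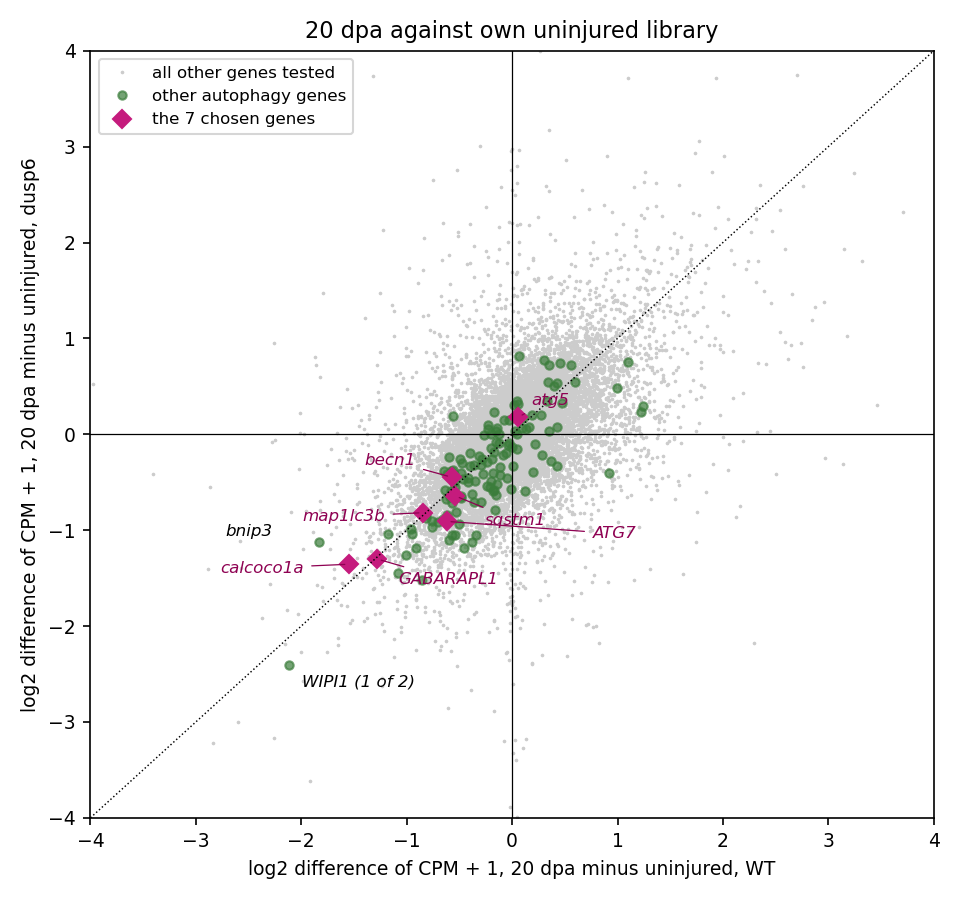
Log2 difference of CPM + 1 between 20 dpa and the uninjured library of the same genotype, WT on the horizontal and dusp6 on the vertical axis, 1 point per gene with at least 50 counts in at least 1 library. The 7 chosen genes are diamonds, the other autophagy genes green, and 13 genes lie outside the axes at 4; calcoco1a lies at -1.55 and -1.36, GABARAPL1 at -1.28 and -1.30 and WIPI1 (1 of 2) at -2.11 and -2.41.

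The genotype contrast did not choose the genes, but its test in the additive fit uses the same residual as the fit from which GABARAPL1 and calcoco1a were noted, so for this pair it is not independent of the choice. The 3 genes GABARAPL1, calcoco1a and map1lc3b were higher in dusp6 than in WT ventricles in both states. For GABARAPL1 the ratio of dusp6 to WT was 1.46 uninjured (1.40 to 1.52) and 1.45 at 20 dpa (1.35 to 1.55). For calcoco1a it was 1.504 (1.45 to 1.56) and 1.74 (1.63 to 1.85), and for map1lc3b 1.31 (1.26 to 1.36) and 1.34 (1.27 to 1.42).

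The ratios of the other 4 genes lay closer to 1, and becn1 also lay above 1 in both states. Thus 4 of the 7 were higher in dusp6 in both states, where 29.3% of all genes and 50 of the 129 other autophagy genes were. sqstm1 had ratios of 0.980 uninjured (0.944 to 1.02) and 0.910 at 20 dpa (0.864 to 0.958), becn1 1.05 (0.946 to 1.17) and 1.17 (1.011 to 1.35), and atg5 0.970 (0.892 to 1.05) and 1.06 (0.971 to 1.16). ATG7 had 1.05 (0.904 to 1.22) and 0.806 (0.637 to 1.02).

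The additive fit of edgeR used all 4 libraries and takes its residual from how far the genotypes' injury differences part. None of the 5 genes other than the pair passed an adjusted p of 0.05 for genotype. The fitted log2 difference of map1lc3b was 0.41 (edgeR adjusted p = 0.530), and for the other 4 genes the edgeR adjusted p lay between 0.823 and 0.977. Over all genes this fit called 1 of 15621 for genotype (0.0064%), with 1380 at an unadjusted p under 0.05. For the pair the values are a description and not read as tests: the fitted log2 difference was 0.54 for GABARAPL1 (edgeR adjusted p = 0.426, DESeq2 adjusted p = 0.222) and 0.69 for calcoco1a (edgeR adjusted p = 0.401, DESeq2 adjusted p = 0.0342). DESeq2 called 149 genes in all for genotype.

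**Figure D3:**
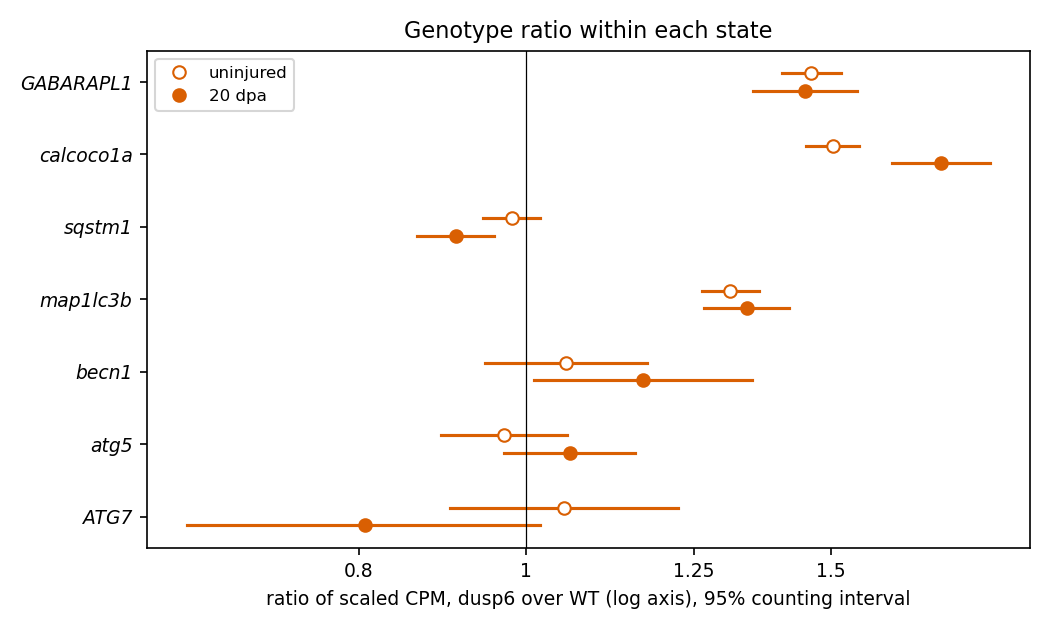
Ratio of scaled CPM of dusp6 over WT (horizontal log axis) for each chosen gene, uninjured as open and 20 dpa as filled points, with 95% counting intervals and 1 library per group. GABARAPL1, calcoco1a and map1lc3b lie between 1.31 and 1.74 in both states, and the other 4 genes between 0.806 and 1.17.

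The ATG8 family was then taken as a whole, because GABARAPL1 and map1lc3b are only a part of it. Of 7 family members with a row, map1lc3c had 0 counts in all 4 libraries. The summed RPKM of the family was 374 (WT) and 439 (dusp6) without injury, against 252 (WT) and 306 (dusp6) at 20 dpa. TMM was not applied to this sum, and it includes GABARAPL1, which was put on the list for being lower. The lower sum at 20 dpa thus follows in part from the choice. gabarapb was the most abundant in every library, with 29.6% to 31.4% of the family.

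The share of GABARAPL1 in this sum was 15.1% in uninjured WT and 17.9% in uninjured dusp6 ventricles, then 8.61% and 9.57% at 20 dpa. This lower share follows in part from the choice of GABARAPL1. The share of map1lc3b was 10.1% and 10.8% uninjured and 7.87% and 8.09% at 20 dpa. The shares of gabarapa (18.1% and 14.9%, then 21.9% and 21.3%), of gabarapl2 (10.4% and 9.28%, then 12.7% and 11.2%) and of map1lc3a (15.4% and 17.6%, then 17.6% and 20.1%) were higher at 20 dpa in each genotype. Shares of a sum rise for some genes when they fall for others. The authors' RPKM of these genes, to which TMM was not applied here, was not higher at 20 dpa. It was 67.8 and 65.2, then 55.1 and 65.1 for gabarapa. For gabarapl2 it was 38.8 and 40.7, then 32.1 and 34.4, and for map1lc3a 57.7 and 77.1, then 44.3 and 61.5. Family members are related in sequence and the sources used here do not say how reads that match several genes were counted.

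The other 4 measured family genes differed less than GABARAPL1 and map1lc3b, and none was called for injury. GABARAPL1 was put on the list for being lower, so its larger difference follows in part from the choice. gabarapb was at 162 and 190 CPM uninjured (WT and dusp6) and 116 and 143 at 20 dpa, with an edgeR fitted log2 difference of -0.45 (adjusted p = 0.105). map1lc3a was at 92.5 and 129 CPM uninjured and 74.3 and 111 at 20 dpa. Like GABARAPL1 and map1lc3b it was higher in dusp6 in both states, by 1.40-fold uninjured (1.35 to 1.45) and 1.49-fold at 20 dpa (1.43 to 1.55), with an edgeR genotype p of 0.00785 and adjusted p of 0.426. gabarapl2 was at 44.4 and 48.8 CPM uninjured and 38.4 and 44.2 at 20 dpa. gabarapa went both ways, at 103 and 104 CPM uninjured and 87.7 and 111 at 20 dpa. Its ratio of 20 dpa to uninjured was 0.850 in WT (0.819 to 0.882) and 1.07 in dusp6 (1.03 to 1.11). gabarapb, gabarapl2 and gabarapa were also higher in dusp6 than in WT in both states, by smaller ratios than map1lc3a. The smallest was that of gabarapa uninjured, 1.007 (0.973 to 1.04).

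**Figure D4:**
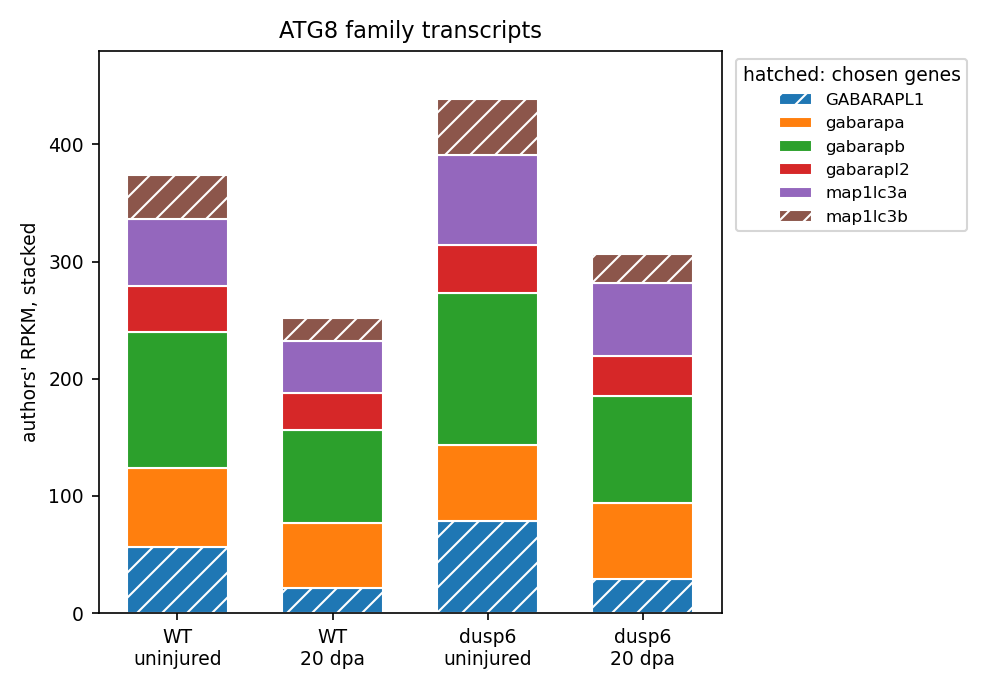
The authors' RPKM of the 6 expressed ATG8 family genes, stacked from 0 (vertical axis) for each of the 4 libraries (horizontal axis), with the chosen genes hatched. The stack is 374 and 439 RPKM in the uninjured libraries and 252 and 306 at 20 dpa, and the GABARAPL1 segment is 56.4 and 78.7 RPKM uninjured and 21.7 and 29.3 at 20 dpa.

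The rest of the pathway was examined in a list chosen for function, though with earlier results of these data known. It held 10 role groups, with 131 genes besides the chosen 7. Of these, 129 reached 50 counts in at least 1 library. At 20 dpa 82 of the 129 (63.6%) were lower in both genotypes and 29 (22.5%) higher in both, where 36.7% and 35.5% of all genes were. The median log2 difference of CPM + 1 was -0.20 in WT and -0.33 in dusp6, against 0.00 and -0.01 over all genes tested. At least 2-fold lower were 5 of the 129 in WT and 14 in dusp6, where 2.14% and 4.14% of all genes were. At least 2-fold higher were 3 in WT (sesn1, foxo3b and NPC2 (2 of 2)) and 0 in dusp6, where 3.5% and 3.82% of all genes were. Measured against both uninjured libraries averaged, the count 2-fold lower was 9 in WT and 5 in dusp6, and over all 15621 genes 450 and 498.

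The edgeR fit called 1 of the 129 for injury, the lower WIPI1 (1 of 2), and none that was higher, where 0.282% of all genes were called lower and 0.538% higher. At an unadjusted p under 0.05 there were 49 lower and 13 higher, and over all 15621 genes 2100 and 2183. DESeq2 called 22 lower and 3 higher, and over all genes 615 and 779. For genotype edgeR and DESeq2 each called 0 of the 129, with 13 and 7 at an unadjusted p under 0.05, where 1380 and 930 of all 15621 genes were.

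Among genes that start the membrane, the group of the initiation kinase complex and related kinases had 6 of 7 genes lower in both genotypes. Its medians were -0.49 in WT and -0.50 in dusp6. ulk1a, the more abundant ULK1 kinase gene, differed little, at 97.8 (WT) and 99.6 (dusp6) CPM uninjured and 94.9 and 92.3 at 20 dpa. ulk1b, a gene for the ULK1 kinase, was at 16.8 and 26.9 CPM uninjured and 8.80 and 8.71 at 20 dpa (edgeR adjusted p = 0.0679). ulk3, a related kinase gene, was at 4.15 and 5.09 CPM uninjured and 2.47 and 2.72 at 20 dpa (adjusted p = 0.107).

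The group of the lipid kinase complexes around becn1, in which vmp1 was also listed, had 7 of 9 genes lower in both. ATG14, which directs the kinase to autophagy, was lower by 1.82-fold in WT (1.67 to 1.99) and by 1.84-fold in dusp6 (1.69 to 1.999), with an edgeR adjusted p of 0.0611. pik3r4, the gene of its regulatory subunit VPS15, was lower by 1.47-fold in WT and by 2.11-fold in dusp6 (adjusted p = 0.0847). becn1 itself was lower by 1.56-fold in WT and by 1.41-fold in dusp6. ATG14 and pik3r4 were named for the largest mean differences in this group, whose medians were -0.16 in WT and -0.32 in dusp6.

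The group of ATG9, ATG2 and WIPI genes had the lowest medians of the 10 groups, -0.59 in WT and -0.82 in dusp6, with 9 of 10 genes lower in both. WIPI1 (1 of 2), a gene for a protein that binds the lipid made by the kinase complex, fell from 6.47 to 0.726 CPM in WT and from 10.6 to 1.19 CPM in dusp6. The 20 dpa libraries held 40 and 62 counts, and the fold was 8.91 lower in WT (6.43 to 12.6) and 8.94 lower in dusp6 (6.88 to 11.8), with an edgeR adjusted p of 0.0484. This call was lost with library totals in place of TMM and with a floor of 250 counts, both of which left 0 of the list called. The other gene of that name, wipi1, had an edgeR fitted log2 difference of -0.25 (adjusted p = 0.345). ATG2A, which moves lipids to the membrane, was lower by 2.24-fold in WT (2.02 to 2.49) and by 2.92-fold in dusp6 (2.63 to 3.24), with an adjusted p of 0.0545.

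Conjugation and processing enzymes had 8 of 10 genes lower in both, with medians of -0.47 and -0.35. atg4a and atg4c, genes of the proteases that trim ATG8 proteins, were 1.51-fold and 1.52-fold lower in WT and 1.37-fold and 1.32-fold lower in dusp6 (edgeR adjusted p = 0.117 and 0.116). Of the chosen genes in this group, ATG7 differed more than these, and atg5 was not lower.

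Cargo receptors and adaptors had 9 of 12 genes lower in both, with medians of -0.28 and -0.29. None of the 12 was 2-fold lower in either genotype. The largest log2 differences of CPM + 1 were -0.70 in WT and -0.91 in dusp6, those of wdfy3. calcoco1a lay at -1.55 and -1.36, but it was put on the list for being lower, so this gap follows in part from the choice. NBR1 (2 of 2), which shares its name with nbr1, had the smaller difference of the pair. It was at 32.4 (WT) and 35.0 (dusp6) CPM uninjured and 28.2 and 29.0 at 20 dpa. nbr1, a receptor related to p62, was lower by 1.60-fold in WT (1.497 to 1.71) and by 1.88-fold in dusp6 (1.77 to 1.998), with an edgeR adjusted p of 0.0660. wdfy3, a scaffold for clearing aggregates, was 1.67-fold and 1.95-fold lower (adjusted p = 0.0664).

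Genes of mitophagy, the removal of mitochondria, were split, with 6 of 11 lower and 4 higher in both. The medians of this group were -0.20 in WT and -0.003 in dusp6, and bnip3 and park2 were named for its largest mean differences. bnip3, a receptor on the outer mitochondrial membrane, was at 162 CPM (WT) and 209 CPM (dusp6) without injury, against 45.0 CPM (WT) and 95.3 CPM (dusp6) at 20 dpa. It was lower by 3.61-fold in WT (3.45 to 3.77) and by 2.19-fold in dusp6 (2.12 to 2.27), with an edgeR adjusted p of 0.0594. park2, the gene of the ubiquitin ligase parkin, was 2.40-fold and 2.16-fold lower (adjusted p = 0.0527).

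Genes for fusion with the lysosome had 12 of 15 lower in both, with medians of -0.36 and -0.49. vps41, of the HOPS tethering complex, was lower by 1.76-fold in WT and by 1.96-fold in dusp6 (edgeR adjusted p = 0.0650). tecpr1b was at 2.93 and 4.34 CPM uninjured and 1.09 and 1.34 at 20 dpa (adjusted p = 0.0691).

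Lysosome and control genes had WT medians close to 0. Of 23 genes of lysosome membrane and hydrolases 10 were lower and 7 higher in both, with medians of 0.02 in WT and -0.28 in dusp6. mcoln1b, a lysosomal calcium channel gene, was 2.45-fold and 2.58-fold lower (edgeR adjusted p = 0.0662), and gba, the gene of glucocerebrosidase, 1.61-fold and 2.42-fold lower (adjusted p = 0.0969). The macrophage markers, of a cell type rich in lysosomes, stood at sums of 266 and 336 CPM uninjured and 337 and 259 CPM at 20 dpa. Most of the sum came from cd74a (144 and 184, then 161 and 129 CPM) and lgmn (84.7 and 108, then 97.3 and 89.7). Of the 8 markers 3 (mfap4, lyz and spi1b) were higher in both 20 dpa libraries and none was at 0. mfap4 was at 1.45 and 1.79 CPM uninjured and 14.4 and 6.68 at 20 dpa. The part of these markers in this group was not tested.

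Of 28 genes of nutrient and stress control 12 were lower and 10 higher in both. sesn1, a sestrin gene whose product restrains the mTOR kinase, was at 124 and 148 CPM uninjured and 267 and 251 at 20 dpa, a ratio of 2.15 in WT (2.09 to 2.21) and 1.70 in dusp6 (1.65 to 1.74), with an edgeR adjusted p of 0.0611. tp53inp2, which binds ATG8 proteins, was 1.70-fold and 1.98-fold lower (adjusted p = 0.0606). The other gene of that name, TP53INP2, was more abundant, at 98.1 (WT) and 98.8 (dusp6) CPM uninjured and 98.4 and 78.5 at 20 dpa. tfeb, the gene of a main activator of lysosome and autophagy genes, was picked after its values were seen and lay at 52.0 and 50.5 CPM uninjured and 55.6 and 52.9 at 20 dpa.

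**Figure D5:**
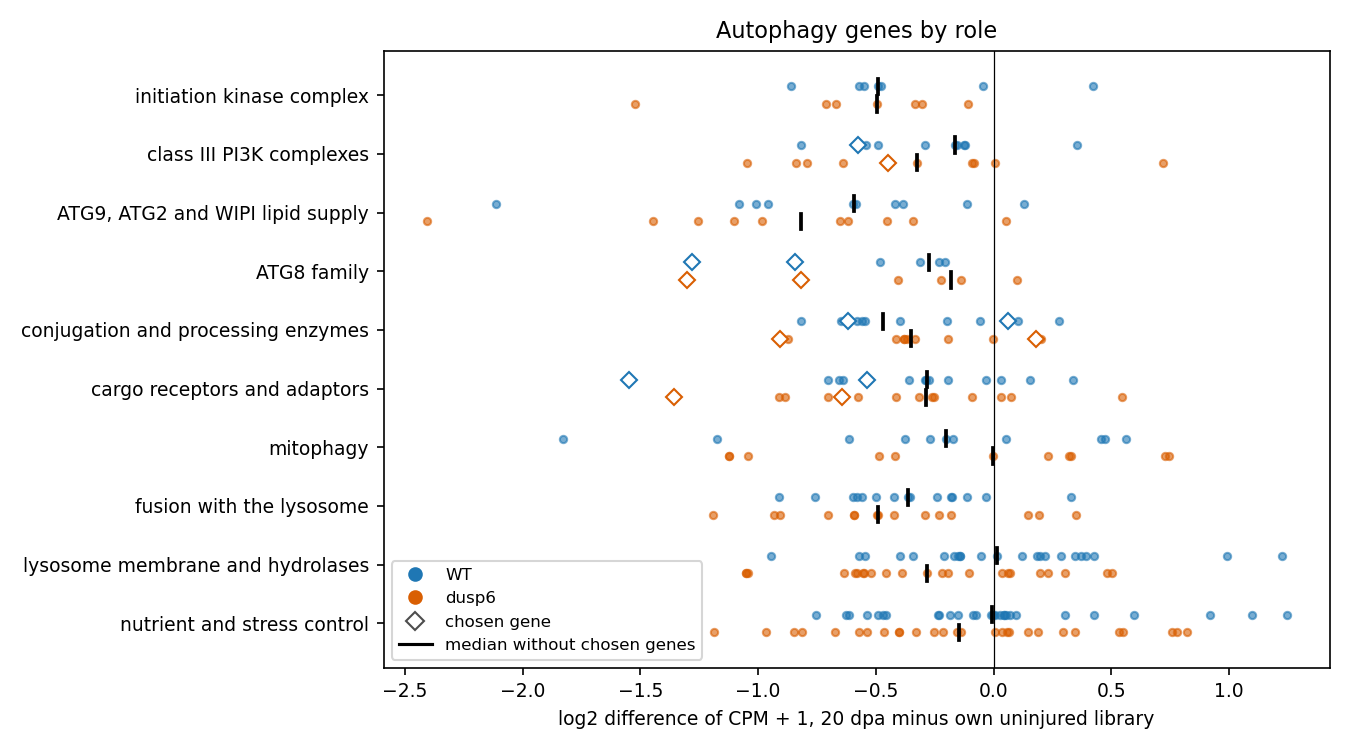
Log2 difference of CPM + 1 between 20 dpa and the own uninjured library (horizontal axis) for every tested autophagy gene by role group (vertical axis), WT in blue above and dusp6 in orange below, chosen genes as open diamonds and the median of the others as a black bar. The bars lie at -0.59 (WT) and -0.82 (dusp6) for the ATG9, ATG2 and WIPI genes and at 0.02 and -0.28 for lysosome genes.

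The genes whose pattern over the 4 libraries lay nearest to GABARAPL1 were found by the Euclidean distance between log2 values of CPM + 1, each centred on its own mean, among 10245 others with a symbol and at least 250 counts. They were rnf11a (distance 0.104), fzr1b (0.112), pus7l_2 (0.129) and asb13a.1 (0.140). The added 1 CPM understates the differences of low genes, so their closeness depends on it. asb13a.1 was at 2.85 and 4.86 CPM uninjured and 0.817 and 1.44 at 20 dpa. rnf11a, a RING finger gene, was at 35.6 and 50.5 CPM uninjured and 15.1 and 20.4 at 20 dpa. Nearest to calcoco1a were lmod2a (0.105), which encodes the actin filament protein leiomodin 2, ypel2a (0.141), pdpk1a (0.154), which encodes a kinase upstream of Akt, and asb2b (0.189). lmod2a was at 109 and 178 CPM uninjured and 40.2 and 67.0 at 20 dpa. The chosen pair lay near each other, at a distance of 0.244, which ranked 6 from calcoco1a and 14 from GABARAPL1. map1lc3b ranked 128 from GABARAPL1 and 143 from calcoco1a. The pair was chosen for a like pattern in these same libraries, so its closeness follows in part from the choice. With 4 libraries and many genes, close patterns are easily found, and the distances are given as a description.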

How the data were processed

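The authors deposited 2 tables, which set the WT or the dusp6 20 dpa library beside both uninjured ones and whose uninjured columns were identical and were used once. Per the file headers they hold expression values per gene, treated here as raw counts because they are whole numbers with a different total in each library. They also hold the deposited RPKM, used to compare levels between genes, and a deposited CPM and group means, which were not used. The deposited tables further give a signed fold score, a p-value and its FDR from an EDGE procedure (named so per the file headers), and of these only the fold score of the chosen genes is quoted. The aligner, genome build, annotation and handling of multiply mapped reads are not stated in the labels or headers used here. No per-library column was left without a matching library (0).

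Counts were scaled by TMM (edgeR 4.0.16, R 4.3.3), with factors of 1.06, 1.01, 0.998 and 0.938 for WT uninjured, dusp6 uninjured, WT 20 dpa and dusp6 20 dpa. A gene was tested if any library held 50 counts or more of it. Log2 differences used a pseudocount of 1 CPM, which understates low genes. Folds are ratios without it, with exact conditional 95% counting intervals, and intervals for ratios of ratios use the normal approximation. The edgeR quasi-likelihood fit had genotype and injury as additive terms, 1 residual degree of freedom and Benjamini-Hochberg adjustment over all genes, and was tested on simulated data. Its residual is not a spread between libraries of a group. Injury values of chosen genes from this fit are not given. DESeq2 1.42.0, other scalings, pseudocounts, floors and references were alternatives. The genes, the lists and the tests were chosen with earlier results of these data known. Genes named besides the 7 were those called in the pathway list, the 2 with the largest mean difference in each role group among those with at least 250 counts in 1 library, and the 4 nearest patterns. Others, among them wipi1, calcoco1b, gabarapa, gabarapl2, foxo3b, NPC2 (2 of 2), tfeb, bcl2l13, ncoa4, vmp1, hexa, ddit4 and the marker genes, were named after their values were seen. So were ulk1a, NBR1 (2 of 2) and TP53INP2. Lists were matched by symbol with case ignored, and with the tables' endings such as "(1 of 2)". No sequence is shown because none was in the sources used here. Python 3.11.15, matplotlib 3.10.9, scipy 1.17.1, pandas 2.3.3 and numpy 2.4.6 were also used.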

Additional observations from a re-analysis of the deposited data

How the results depend on the processing

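No paired analysis was possible because each group had 1 library; genotype was a term of the fit throughout. The count of chosen genes lower at 20 dpa in both genotypes was the same under each scaling, pseudocount and reference tried. GABARAPL1 ranged from -1.57 to -1.05 in WT and calcoco1a from -1.87 to -1.30, while ATG7 in WT ranged from -0.73 to -0.22, the last with a pseudocount of 10 CPM. The genotype difference of atg5 reversed from 0.02 to -0.060 with library totals. The edgeR counts depended heavily on the setting, and the cause was not tested. For injury over all genes the count was 128, with 1 by library totals, 333 by DESeq2 size factors, 1394 by the DESeq2 test, 987 with no floor and 0 with a floor of 250 counts (3561 at an unadjusted p under 0.05). For injury in the pathway list it was 1, with 0, 5, 25, 18 and 0 in that order. For genotype over all genes it was 1, with 149 by the DESeq2 test, 22 with no floor and 0 with a floor of 250 counts (1002 at an unadjusted p under 0.05). A pseudocount of 0.25 CPM gave 638 lower and 919 higher genes past 2-fold in WT and 1104 and 905 in dusp6, and 10 CPM gave 57, 104, 100 and 135. In the pathway list 0.25 CPM gave 10 lower and 5 higher in WT, and 10 CPM gave 1 and 1 in WT and 2 lower in dusp6. The mean of both uninjured libraries gave 9 lower in WT and 5 in dusp6. The share of pathway genes lower in both genotypes, 63.6% against 36.7% of all genes, ranged from 62.0% (80 of 129; all genes 36.4%) with DESeq2 size factors to 70.5% (91 of 129; all genes 44.3%) with library totals, under alternatives chosen after seeing the data.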

Other observations

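Several genes of the pathway list stood against its general direction, picked here after their values were seen. bcl2l13, a mitophagy receptor gene, was at 62.2 and 59.0 CPM uninjured (WT and dusp6) and 92.2 and 98.3 at 20 dpa, with an edgeR injury adjusted p of 0.0734. ncoa4, the receptor for autophagy of ferritin, was at 163 and 142 CPM uninjured and 206 and 207 at 20 dpa (adjusted p = 0.115). vmp1, needed for autophagosome formation, was at 14.3 and 9.85 CPM uninjured and 18.5 and 16.9 at 20 dpa (adjusted p = 0.126). The red blood cell markers were also higher at 20 dpa, with sums of 3820 and 2963 CPM uninjured and 7241 and 5687 at 20 dpa over 3 genes. All 3 were higher than in the own uninjured library in each genotype, and for 2 both 20 dpa libraries lay above both uninjured ones. Their part in the values above was not tested.

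Also picked after its values were seen, the gene hexa, which encodes a lysosomal hexosaminidase subunit, was higher in dusp6 in both states, at 8.81 and 7.90 CPM in the WT libraries and 12.7 and 13.3 in the dusp6 libraries (edgeR genotype adjusted p = 0.456). The stress gene ddit4, picked likewise, was at 0.568 CPM (WT) and 4.16 CPM (dusp6) without injury, against 1.96 CPM (WT) and 2.91 CPM (dusp6) at 20 dpa, so its ratio at 20 dpa lay above 1 in WT and below 1 in dusp6.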
